A study of Mus musculus with 16 samples.

Results

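The genes described here encode the cadherin and catenin complex that holds neighbouring intestinal epithelial cells together, with the epithelial adhesion molecule Epcam. The 7 members were chosen by name, as Cdh1, Cdh17, Ctnnb1, Ctnna1, Ctnnd1, Jup and Epcam, and all 7 were rows of both count matrices, out of 24421 genes. They were followed from the crypt to the villus and compared between genotypes. All mice were outbred and 16 days old. WT mice were littermates, and ROBO mice were ROBO(+/−):VilCre(+/−). In ROBO mice Villin-Cre, which acts in intestinal epithelium from the embryo on, recombines a CAG-driven transgene at the ROSA locus so that each recombined cell makes 1 of 3 forms of human RSPO3, namely RSPO3 itself or the fusions PTPRKe1:RSPO3e2–5 and PTPRKe1–7:RSPO3e2–5, while a cell that has not recombined makes only the FAP-Mars1 fluorogen protein. A ROBO sample is therefore a mosaic, and the counts do not say which form a cell carried.

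E-cadherin, the product of Cdh1, binds E-cadherin on the next cell and is the core of the adherens junction. Its tail holds β-catenin (Ctnnb1) or plakoglobin (Jup), either of which binds α-catenin (Ctnna1), the link to actin, while p120-catenin (Ctnnd1) binds nearer the membrane and keeps the cadherin at the surface. β-catenin is also the transcriptional effector of Wnt signalling, the pathway that R-spondins amplify and on which crypt stem cells depend. Cdh17, LI-cadherin, is an intestinal cadherin that binds without catenins, and Epcam associates with claudins at the lateral membrane.

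Crypts were dissociated to single cells, captured in droplets and sequenced from the 3′ end of each transcript with unique molecular identifiers (UMIs), and each count is of molecules caught, not of reads. There were 8 labelled samples per genotype, but cell names gave only the genotype, so each genotype was 1 pooled sample of 1348 WT or 1249 ROBO cells, with 2682127 and 2428435 UMIs. Median depth was 1492 UMIs per cell in WT and 1610 in ROBO, with a range over all cells of 463 to 13756. No test between genotypes was possible. Every interval below is a 95% interval for counting error alone and does not cover the spread between mice. Levels are UMIs of a gene per 10000 UMIs of the same cells, and ratios between groups are log2 ratios of those levels, called "leaving out 0" where the interval does not hold 0.

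Cells were divided into 12 clusters without using the members or the related adhesion genes listed for this work. Crypt cells were the stem cell-like cells (647), a transiently amplifying-like cluster led by the ribosomal RNA Rn45s (401), and a dividing cluster led by Sfrp5 (367) that raised both stem and division markers and is named only by its leading gene. The transiently amplifying-like cluster raised 5 division markers at a median depth of 910 UMIs, the dividing cluster 22 at 2895. The stem cell-like cells joined a cluster with 10 of 20 stem markers raised, Lgr5 among its leading genes, to another with 4. The latter was led by Myl7 and the bottom enterocyte marker Reg3g. Their median depths were 1162 and 3072 UMIs, and levels are given only for both together. Villus cells were the bottom (227), middle (526) and top (229) enterocyte-like cells. Their order from villus base to tip rests on marker genes, and no position was measured. Base and tip below name these classes. One of the middle enterocyte-like clusters was led by the stress genes Cxcl10, Fosb and Atf3. Secretory-like (125), enteroendocrine-like (29) and immune-like (46) cells made up the rest. The 20 immune markers summed to at most 0.84 UMIs per 10000 in any class outside the immune-like cells. The 15 fibroblast markers summed to 4.93 UMIs per 10000 in WT and 16.0 in ROBO cells of the dividing cluster, with 2 of them at 0 in each, and 311 of the 315 WT and 836 of the 839 ROBO UMIs there lay in 4 cells of each genotype.

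The RefSeq table of promoters held entries for Ctnnb1, Ctnnd1, Jup and Epcam. The 250 bases before the start are shown for Epcam and Jup, the members whose level over all cells differed between genotypes beyond counting error. The capitals mark CACCTG or its reverse complement CAGGTG, the E-box that the Snail and Zeb repressors of epithelial genes recognise, and CTTTG or its reverse complement CAAAG, the core of the site bound by the TCF and LEF partners of β-catenin.
Epcam, GRCm38.p6 chr17:87635729-87635978, plus strand: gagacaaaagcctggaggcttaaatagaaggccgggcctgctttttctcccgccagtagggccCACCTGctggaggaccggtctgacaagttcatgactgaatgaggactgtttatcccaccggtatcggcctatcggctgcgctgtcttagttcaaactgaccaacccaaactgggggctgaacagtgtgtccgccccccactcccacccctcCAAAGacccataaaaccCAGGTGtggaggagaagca
Jup, GRCm38.p6 chr11:100397791-100398040, minus strand: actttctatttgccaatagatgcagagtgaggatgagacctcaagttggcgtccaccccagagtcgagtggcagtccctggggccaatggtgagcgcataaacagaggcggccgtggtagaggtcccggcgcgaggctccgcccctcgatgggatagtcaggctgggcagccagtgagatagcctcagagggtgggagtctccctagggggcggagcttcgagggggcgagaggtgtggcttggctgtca
The Epcam window held 2 matches to the E-box and 1 to CTTTG, and the Jup window held neither. Over all 32851 windows of this length in the table, 17.2% held the E-box and 48.6% held CTTTG, so both are common, and a match is not a binding site.

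The members were located by symbol in GENCODE M21 on GRCm38. Cdh1 lies at chr8:106603351-106670246 and Cdh17 at chr4:11758147-11817895, both on the plus strand. Ctnnb1 is at chr9:120929216-120960507 (plus), Ctnna1 at chr18:35118859-35254779 (plus), Ctnnd1 at chr2:84600071-84650765 (minus), Jup at chr11:100368958-100397763 (minus) and Epcam at chr17:87635979-87651129 (plus). All 7 are protein coding. Only Ctnnb1 has another gene over its 3′ end, Ulk4 on the opposite strand. Ulk4 itself was listed with 4 WT and 1 ROBO UMIs, against 3830 for Ctnnb1, and the strand used in counting is not given in the sources used here.

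E-cadherin was the member whose level differed most between bottom and later enterocyte-like cells. Cdh1 was at 6.36 UMIs per 10000 in stem cell-like cells, 4.80 in transiently amplifying-like cells, 7.03 in the dividing cluster and 7.83 in bottom enterocyte-like cells, and then at 3.79 in middle and 3.01 in top enterocyte-like cells. By genotype, bottom enterocyte-like cells had 8.51 in WT (interval 7.48 to 9.63) and 7.02 in ROBO (6.01 to 8.15). Middle cells had 3.67 in WT (3.18 to 4.23) and 3.90 in ROBO (3.39 to 4.48), and top cells 2.77 in WT (1.96 to 3.81) and 3.19 in ROBO (2.42 to 4.12). All 8 values of the crypt classes and bottom enterocyte-like cells, from 4.44 to 8.51, lay above all 4 values of middle and top cells, from 2.77 to 3.90. Cdh1 was the only one of the 7 members whose values did not overlap in this way. This split was drawn after the levels had been seen, and the share of all genes without such overlap was not counted. The count of members is therefore a description only. Between the crypt classes and all 3 enterocyte-like classes the Cdh1 values did overlap, at 4.44 to 7.93 against 2.77 to 8.51.

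**Figure D1:**
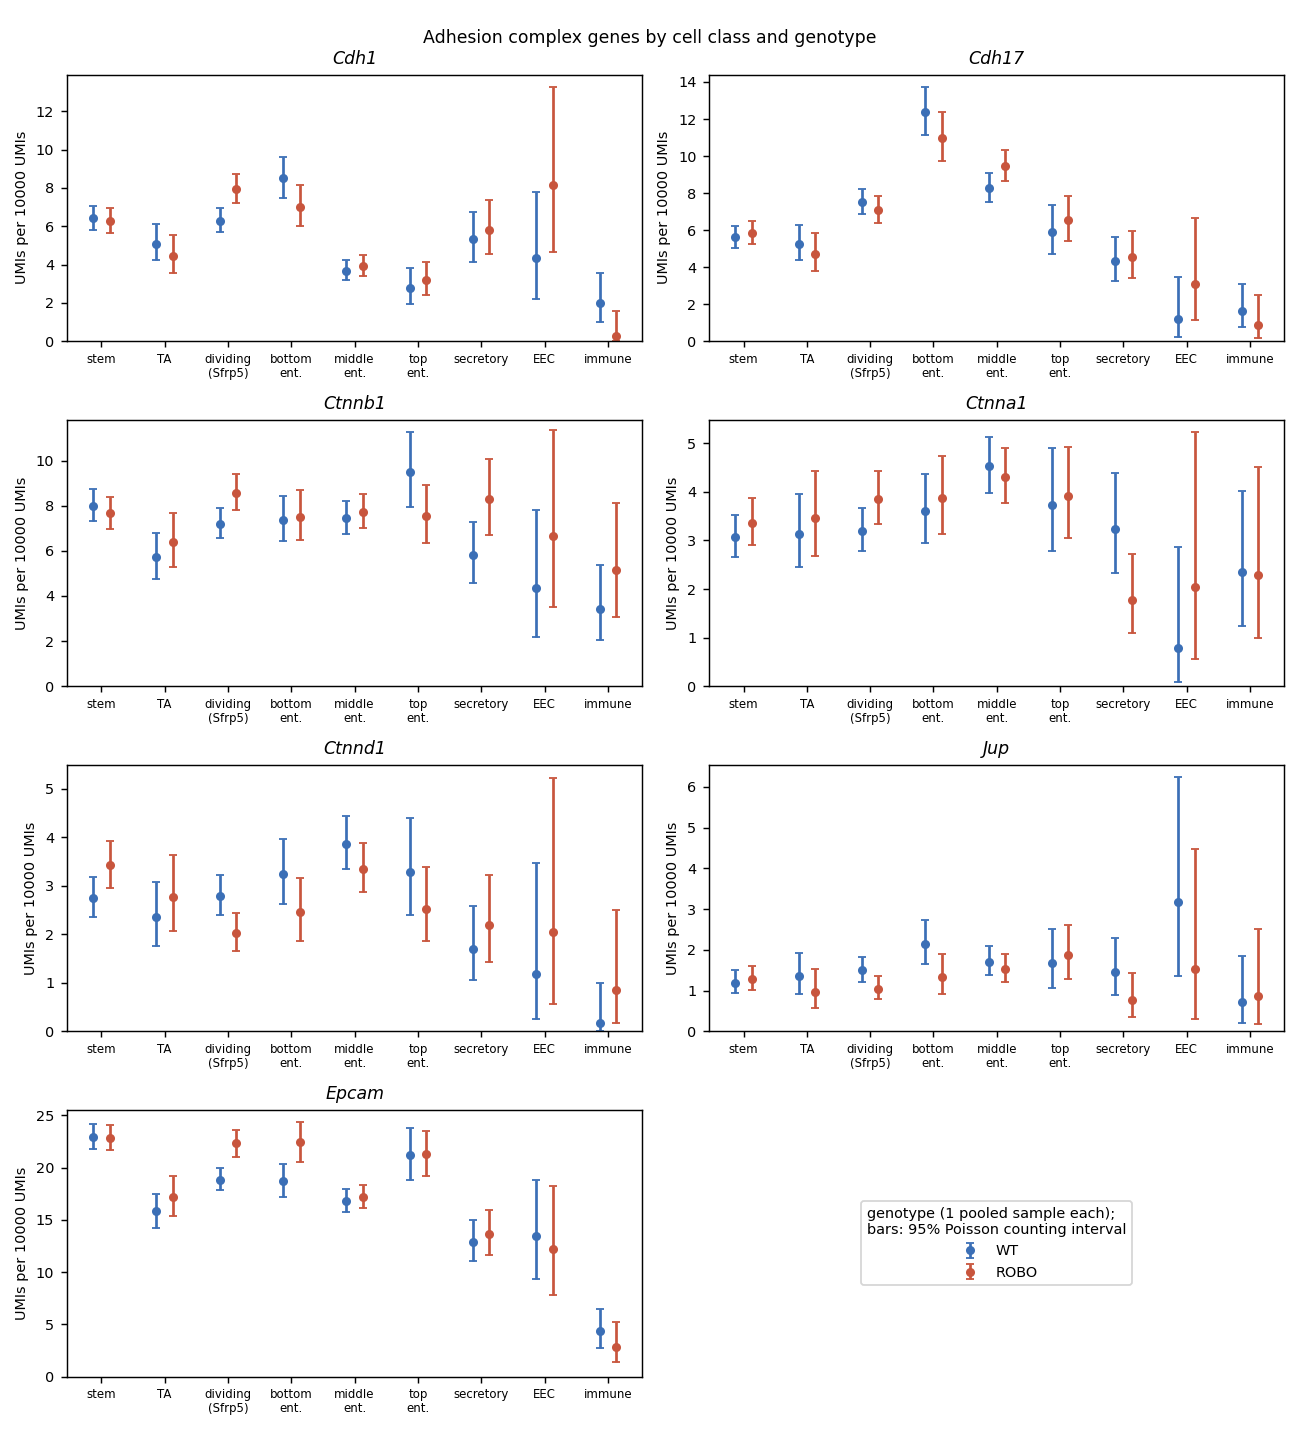
Levels of the 7 genes in UMIs per 10000 UMIs (vertical axes, from 0) in each cell class (horizontal axes: stem, transiently amplifying (TA), dividing cluster led by Sfrp5, bottom, middle and top enterocyte (ent.), secretory, enteroendocrine (EEC) and immune) for WT and ROBO, 1 pooled sample each, with 95% Poisson intervals. Cdh1 lies between 4.44 and 8.51 up to the bottom enterocyte-like cells and between 2.77 and 3.90 in the middle and top ones.

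The ratio of bottom to middle and top enterocyte-like cells was taken after these levels had been seen. For Cdh1 it was 1.12 (0.93 to 1.31) over both genotypes, which is 2.17-fold (1.90 to 2.48). In WT it was 1.29, or 2.44-fold (2.03 to 2.93), from 250 and 233 UMIs, and in ROBO 0.92, or 1.89-fold (1.55 to 2.30), from 172 and 263 UMIs. Cdh17 was also higher at the base, by 0.51 (0.36 to 0.65), with 12.4 UMIs per 10000 in WT and 10.98 in ROBO bottom cells against 7.80 and 8.70 in the later ones. Epcam leaned the same way by 0.18 (0.080 to 0.29), while Ctnnb1 (-0.062), Ctnna1 (-0.20), Ctnnd1 (-0.26) and Jup (0.10) had intervals that held 0. Thus 3 of 7 members left out 0, where 60.1% of the 3683 genes with at least 100 UMIs did, and all 3 lay toward the base, where 37.5% of the genes did. Only Cdh1 was past 1.5-fold, where 48.0% of the genes were, and 92.0% of the genes had a lower ratio than Cdh1. With fewer, broader clusters (resolution of 0.4) the Cdh17 ratio was 0.045.

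LI-cadherin had its highest level at the villus base. Cdh17 ran from 5.73 UMIs per 10000 in stem cell-like cells and 5.02 in transiently amplifying-like cells to 7.33 in the dividing cluster and 11.7 (10.8 to 12.7) in bottom enterocyte-like cells, and was 8.86 in middle and 6.27 in top cells. The steps from bottom to middle and from middle to top cells both exceeded the intervals. Secretory-like cells had 4.44 (3.65 to 5.35) and enteroendocrine-like cells 2.01 (0.92 to 3.81), from 9 UMIs. In the enteroendocrine-like cells Cdh1 was at 6.02 (3.97 to 8.76), within the range of crypt cells.

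Both cadherins were counted in the same cells, so that their ratio does not depend on how cells are scaled. Since capture can differ between genes, it is read only across classes. There were 1.11 (1.00 to 1.23) Cdh1 UMIs per Cdh17 UMI in stem cell-like cells, 0.957 (0.784 to 1.17) in transiently amplifying-like cells and 0.959 (0.870 to 1.06) in the dividing cluster. Bottom enterocyte-like cells had 0.667 (0.588 to 0.755), middle cells 0.427 (0.379 to 0.481) and top cells 0.480 (0.372 to 0.615). Secretory-like cells had 1.25 (0.969 to 1.63). The enteroendocrine-like value was 3.00 (1.37 to 7.25), from 27 and 9 UMIs. The 3 enterocyte-like classes had lower values than the stem cell-like class in WT and in ROBO.

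**Figure D2:**
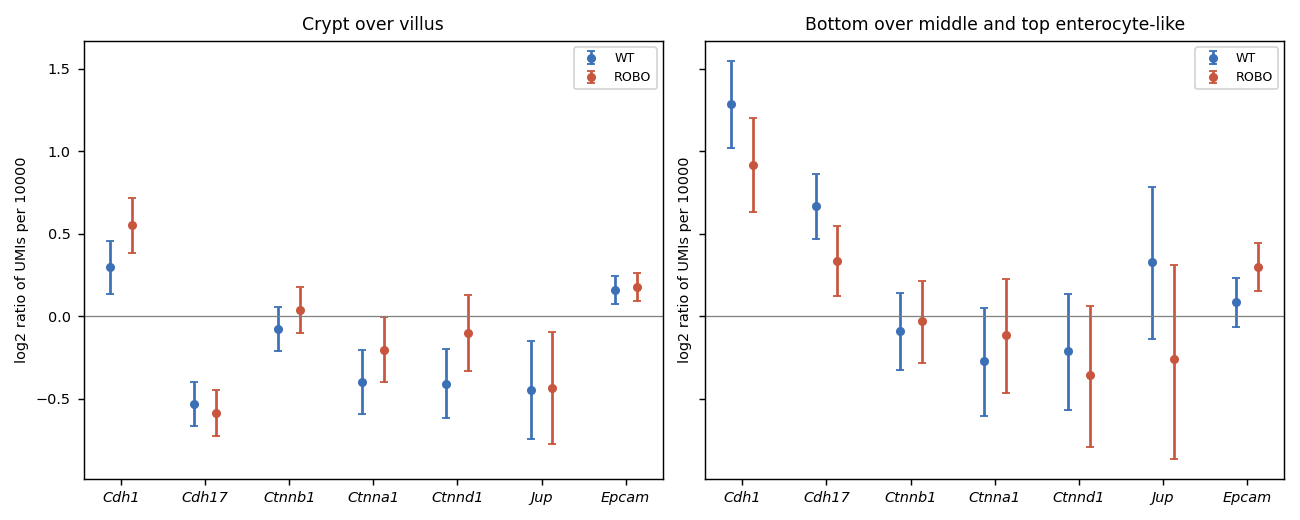
Log2 ratio of UMIs per 10000 for each gene (horizontal axes) in WT and ROBO, crypt over villus on the left and bottom over middle and top enterocyte-like cells on the right, with 95% counting intervals. Cdh17 lies below 0 on the left at -0.53 in WT and -0.58 in ROBO, and Cdh1 lies highest on the right at 1.29 and 0.92.

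**Figure D3:**
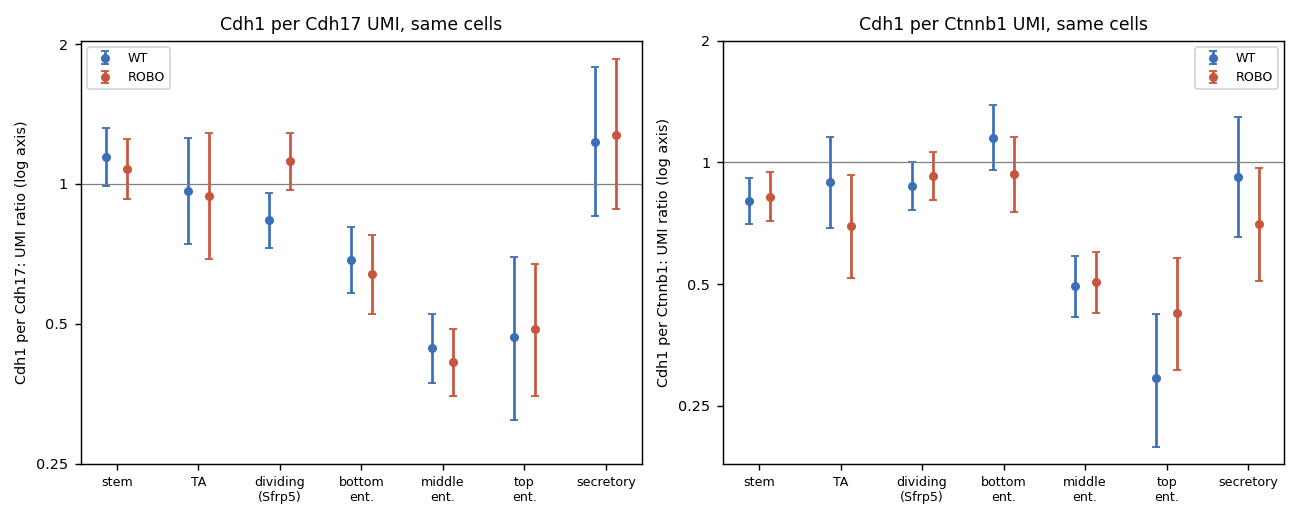
Cdh1 UMIs per Cdh17 UMI (left) and per Ctnnb1 UMI (right), on log axes, in 7 cell classes for WT and ROBO with 95% exact intervals. Both ratios are lower in middle and top enterocyte-like cells than in stem cell-like cells.

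Over both genotypes, the ratio of E-cadherin to its binding partner β-catenin was highest in bottom enterocyte-like cells among the crypt and villus classes. There were 0.812 (0.738 to 0.893) Cdh1 UMIs per Ctnnb1 UMI in stem cell-like cells and 0.799 (0.660 to 0.967) in transiently amplifying-like cells. The dividing cluster had 0.899 (0.817 to 0.989) and bottom enterocyte-like cells 1.05 (0.916 to 1.21). The bottom interval lay above that of the stem cell-like cells and overlapped that of the dividing cluster. In middle cells the ratio was 0.499 (0.442 to 0.564), and in top cells 0.360 (0.282 to 0.456). The middle value was 0.494 in WT and 0.505 in ROBO, and the top value 0.292 (0.198 to 0.422) in WT and 0.423 (0.306 to 0.580) in ROBO, whose intervals overlap.

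β-catenin mRNA had the narrowest range over the epithelial-like classes. Ctnnb1 was at 7.84 UMIs per 10000 in stem cell-like, 6.01 in transiently amplifying-like, 7.82 in dividing, 7.44 in bottom, 7.59 in middle and 8.37 in top enterocyte-like cells, and at 6.98 in secretory-like cells. The highest of these was 1.39-fold the lowest. Over the same classes the fold was 1.58 for Jup, 1.73 for Epcam, 1.74 for Ctnna1 and 1.86 for Ctnnd1. It was 2.60 for Cdh1 and 2.65 for Cdh17. With the 29 enteroendocrine-like cells included, the fold was 1.57 for Ctnnb1. The transiently amplifying-like interval, 5.29 to 6.81, lay below the stem cell-like one, 7.35 to 8.35. Neighbours in the order of levels had overlapping intervals for Ctnnb1, and likewise for Cdh1, Ctnna1, Ctnnd1 and Jup.

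The other catenins differed less regularly between classes. Ctnna1 was at 3.21 in stem cell-like cells and 4.41 (4.02 to 4.83) in middle enterocyte-like cells, its highest class. Ctnnd1 was likewise highest in middle cells, at 3.61 (3.26 to 3.99), with 3.06 (2.76 to 3.39) in stem cell-like cells and 2.44 (2.17 to 2.74) in the dividing cluster. Its bottom (2.88) and top (2.85) enterocyte-like levels were below the stem cell-like one, with overlapping intervals. Jup, the least counted member with 723 UMIs, was at 1.24 in stem cell-like, 1.78 in bottom and 1.79 in top cells. Over both genotypes secretory-like cells were low for all 3 genes, with 2.54 for Ctnna1, 1.94 for Ctnnd1 and 1.13 for Jup. In WT alone, secretory-like Ctnna1 was at 3.24, above the WT level of each crypt class. WT secretory-like Jup was at 1.47, above the WT stem cell-like and transiently amplifying-like levels. In ROBO secretory-like cells Ctnna1 was at 1.77, from 21 UMIs, and Jup at 0.76, from 9 UMIs.

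Epcam, the most counted member with 9879 UMIs, was at 22.9 (22.1 to 23.8) in stem cell-like cells and 16.4 (15.2 to 17.7) in transiently amplifying-like cells. It was 20.4 in both the dividing cluster and bottom enterocyte-like cells, 17.0 in middle and 21.2 in top cells. The lowest values were in secretory-like cells, 13.3 (11.9 to 14.8), and enteroendocrine-like cells, 12.9 (9.82 to 16.7). Its levels thus had no single direction from stem cell to villus tip.

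Over all crypt against all villus cells the members split. Cdh1 was higher in the crypt by 0.42 (0.30 to 0.53), with levels of 6.41 and 4.80, and Epcam by 0.16 (0.10 to 0.23), with 20.9 and 18.7. Cdh17 was lower by -0.56 (-0.65 to -0.46), with 6.29 and 9.24. The catenins Jup (-0.43), Ctnna1 (-0.31) and Ctnnd1 (-0.26) were also lower in the crypt, and Ctnnb1, at -0.022 (-0.12 to 0.075), had an interval that held 0. So 6 of 7 members left out 0, where 68.5% of 7138 genes did, and none of the 7 was past 1.5-fold, where 50.8% of the genes were. The median gene was higher in the crypt by 0.25, and setting that median to 0 put Epcam at -0.081 and Cdh1 at 0.17. At a resolution of 0.4 Cdh1 was at 0.044.

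In each genotype on its own, Ctnnb1 again held 0. The Cdh1 ratio was 0.30 in WT, with an interval of 0.14 to 0.46, and 0.55 in ROBO, with 0.38 to 0.72. Cdh17 was at -0.53 and -0.58, Jup at -0.45 and -0.43, Ctnna1 at -0.40 and -0.20, and Epcam at 0.16 and 0.18. Ctnnd1 was at -0.41 in WT, and in ROBO at -0.10 with an interval of -0.33 to 0.13. The differences between genotypes in these ratios were not tested.

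The comparison of genotypes asks whether cells of mice that make excess RSPO3 differ in adhesion genes. Mouse Rspo3 had 24 UMIs in WT and 16 in ROBO, and Ptprk 227 and 213, but these rows of mouse genes give no check of the human transgene. Over all cells, 5 of the 7 members had ROBO over WT intervals that held 0. Cdh1 was at 0.032 (-0.074 to 0.14), with 1505 UMIs in WT and 1393 in ROBO, and Cdh17 at 0.017 (-0.078 to 0.11), from 1915 and 1754 UMIs. Ctnnb1 was at 0.089 (-0.0031 to 0.18), Ctnna1 at 0.086 (-0.048 to 0.22) and Ctnnd1 at -0.063 (-0.21 to 0.087). As folds, the intervals run from 0.950 to 1.10 for Cdh1 and from 0.948 to 1.08 for Cdh17.

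Epcam and Jup were the exceptions. Epcam was at 18.6 UMIs per 10000 in WT and 20.1 in ROBO, a ratio of 0.11 (0.052 to 0.17). Jup was at 1.54 in WT and 1.28 in ROBO, a ratio of -0.26 (-0.48 to -0.046), from 412 and 311 UMIs. These 2 of 7 compare with 17.0% of the 7458 genes with at least 100 UMIs whose interval left out 0, and no member was past 1.5-fold, as against 2.79% of the genes. In crypt cells alone Ctnna1 (0.19) and Epcam (0.12) left out 0, where 13.9% of the genes did, and in villus cells Ctnnd1 (-0.28) and Epcam (0.10), where 17.1% did.

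Of the cell classes, the dividing cluster led by Sfrp5 had the most members that left out 0. There Cdh1 was at 6.28 in WT (5.68 to 6.93) and 7.93 in ROBO (7.19 to 8.73), with a ratio of 0.34 (0.13 to 0.54). Epcam was at 18.9 and 22.3, a ratio of 0.24, and Ctnnb1 at 7.19 and 8.58, a ratio of 0.25. Ctnnd1 was lower in ROBO, with 2.79 and 2.02 and a ratio of -0.46 (-0.83 to -0.11), as was Jup, with 1.504 and 1.05 and a ratio of -0.52 (-1.03 to -0.027). In this cluster 5 of 7 members left out 0, where 25.9% of 2527 genes did. Median depth there was 3197 UMIs in WT and 2679.5 in ROBO cells. When each cell was thinned to 912 UMIs the Cdh1 ratio was 0.034 and the Jup ratio turned to 0.20, while Epcam (0.16), Ctnnb1 (0.22) and Ctnnd1 (-0.45) kept their direction. Without the cells that held 3 or more fibroblast markers Cdh1 was at 0.35, Epcam at 0.26 and Ctnnd1 at -0.47.

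**Figure D4:**
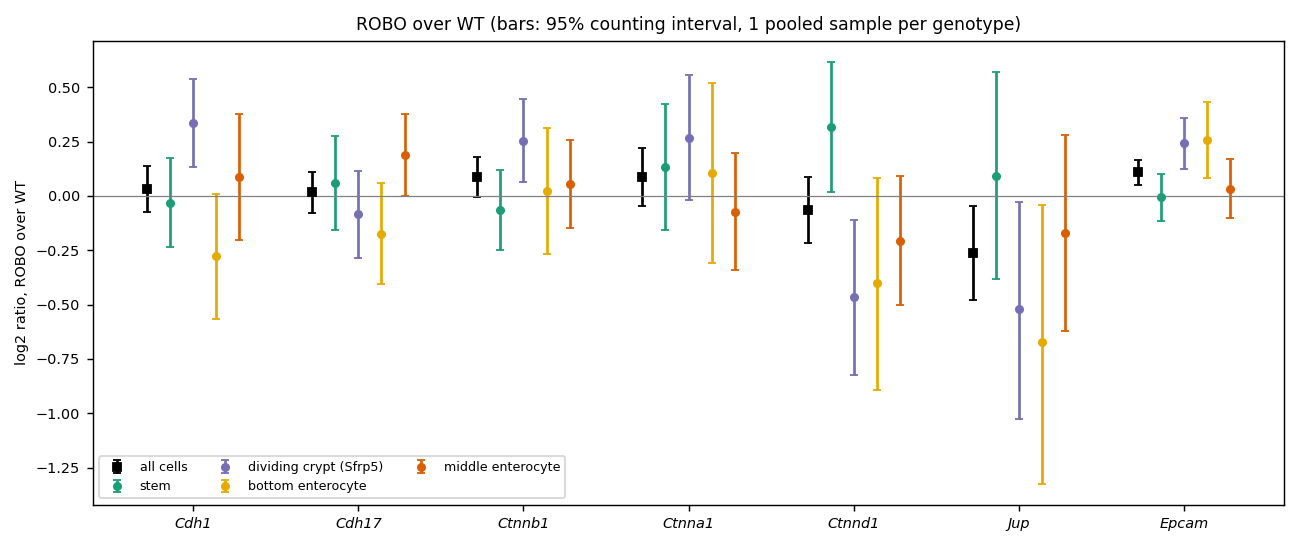
Log2 ratio of UMIs per 10000, ROBO over WT, for each gene over all cells and in 4 cell classes, with 95% counting intervals and 1 pooled sample per genotype. In the dividing cluster Cdh1 is at 0.34 and Ctnnd1 at -0.46, and in stem cell-like cells Ctnnd1 is at 0.32.

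In the other classes few ratios left out 0. In stem cell-like cells Ctnnd1 was higher in ROBO, at 3.42 against 2.74, a ratio of 0.32 (0.020 to 0.62) that was opposite in sign to the dividing cluster, and the other 6 members held 0, with Epcam at 22.9 in WT and 22.8 in ROBO. In bottom enterocyte-like cells Epcam was at 18.7 in WT and 22.4 in ROBO and Jup at 2.14 and 1.35, from 63 and 33 UMIs. Median depth in these cells was 1625 UMIs in WT and 2499 in ROBO, and no thinned ratio is given for this class. In secretory-like cells Ctnnb1 was at 5.79 and 8.27 and Ctnna1 at 3.24 and 1.77, from 42 and 21 UMIs. None of the 7 left out 0 in transiently amplifying-like, middle or top enterocyte-like cells. The share of all tested genes that left out 0 was 7.74% in stem cell-like, 29.3% in bottom enterocyte-like and 32.6% in secretory-like cells. It was 15.5% in transiently amplifying-like, 13.1% in middle and 13.6% in top enterocyte-like cells.

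Immune-like cells, which should lack the epithelial cadherins, served as the measure of background. Their Cdh1 and Cdh17 levels were both 1.33 (0.69 to 2.32) from 12 UMIs each, Ctnnd1 was at 0.44 and Epcam at 3.76, which is 15.3% to 23.1% of the level over epithelial-like cells. Ctnnb1 (4.09) and Ctnna1 (2.32), which lymphocytes use as well, were at 54.1% and 64.9% of it, and Jup, at 0.77 (0.31 to 1.59) from 7 UMIs, was at 54.3%. The immune-like Jup interval held the Jup levels of stem cell-like (1.24) and secretory-like (1.13) cells. It also held those over all cells, 1.54 in WT and 1.28 in ROBO, so these were not separated from this background. Median depth was 1749.5 UMIs in the immune-like cells. Of the 12 Cdh1 UMIs, 11 were in WT and 1 in ROBO, with 6 in 1 cell, and 8 of the 12 Cdh17 UMIs were in 1 cell. The Cdh1 level in top enterocyte-like cells, 3.01 (2.44 to 3.68), was above the pooled immune-like interval, but in WT alone the immune-like interval, 0.99 to 3.55, overlapped the top enterocyte-like one, 1.96 to 3.81.

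To compare how many cells held a gene, each cell was first thinned to 912 UMIs, which left out 364 WT and 285 ROBO cells. At least 1 Epcam UMI was found in 76.5% of cells (82.6% unthinned), Ctnnb1 in 46.9% (60.8%), Cdh17 in 42.2% (56.1%) and Cdh1 in 35.9% (51.1%). Ctnna1 was found in 24.9% (40.0%), Ctnnd1 in 20.7% (34.3%) and Jup in 11.5% (21.7%). Cdh1 was found in 41.4% (34.5 to 48.6) of bottom, 27.0% (22.8 to 31.5) of middle and 21.3% (15.1 to 28.6) of top enterocyte-like cells, against 8.33% (1.75 to 22.5) of immune-like cells. Cdh17 was found in 57.6%, 48.4% and 41.9% of the same 3 classes and in 11.1% (3.11 to 26.1) of immune-like cells. By genotype the shares were 37.0% in WT and 34.8% in ROBO for Cdh1 and 74.9% and 78.1% for Epcam, with overlapping intervals for each.

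The related junction genes placed the members among their partners. The 5 genes of the intermicrovillar adhesion complex, which links brush border microvilli, were all lower in the crypt, past 1.5-fold for 5 of 5, where 17.0% of all tested genes were. Cdhr5 was at 2.02 in crypt and 14.2 in villus cells (-2.81), Cdhr2 at 1.57 and 8.72 (-2.47), Myo7b at 2.18 and 5.88 (-1.43) and Ush1c at 1.76 and 2.85 (-0.69). Each of these ratios lay further from 0 than that of Cdh17.

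Desmosome genes went both ways between crypt and villus. Of the 7 tested, 4 left out 0 upward, where 44.5% of all tested genes did, and 2 downward, where 24.0% did, and their median was 0.44 beside 0.25 over all genes. Desmoplakin (Dsp) was at 0.44 and the desmosomal cadherin Dsg2 at 0.54, while Perp was at -0.25 and Dsc2, another desmosomal cadherin, at -0.068 (-0.30 to 0.17). Between genotypes 2 of 7 left out 0, Dsp (0.24) and Dsc2 (0.31), both higher in ROBO, where 17.0% of all tested genes left out 0 in either direction. Jup, which desmosomes share with the adherens junction, was lower in the crypt and lower in ROBO.

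Of 15 tested linkers of the adherens junction, 5 left out 0 upward and 4 downward, with a median of 0.14, beside the same 44.5%, 24.0% and 0.25 over all tested genes. The actin crosslinker Actn4 was at 4.44 in crypt and 8.27 in villus cells (-0.90), Lima1 at -0.33 and the nectin Pvrl2 at -0.40, and Shroom3 at 0.19 (-0.042 to 0.41). Of the 12 tight junction genes, 1 left out 0 upward and 6 downward, with a median of -0.27, beside 44.5%, 24.0% and 0.25 over all tested genes. Tjp3 was at 0.34, Cgn at -0.81 and F11r, the junctional adhesion molecule A, at -0.87. In ROBO over WT, 2 of 12 left out 0, Tjp3 at -0.27 and F11r at -0.44, where 17.0% of all tested genes did.

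Among partners and regulators of Epcam, Spint2 was level between crypt and villus at 11.5 in both, and Cldn7, the claudin that binds Epcam, at -0.060 (-0.18 to 0.062). Tspan8 was higher in the crypt (0.93) and Spint1 lower (-0.81). Cldn7 was at -0.51 (-0.63 to -0.39) in ROBO over WT, with 1469 and 933 UMIs, the opposite sign to Epcam. Of the 6 tested genes in this list, 1 left out 0 upward in ROBO and 2 downward, Cldn7 among them. Over all tested genes 17.0% left out 0 in either direction. Spint2, Tspan8 and Spint1 held 0. A further list held genes of the β-catenin destruction complex and other regulators of β-catenin. Of its 7 tested genes, 2 left out 0 toward the crypt, where 44.5% of all tested genes did. The median of the list was 0.086 beside 0.25. The 2 genes were Csnk1a1 at 0.23 and Axin1 at 0.62, whereas Gsk3a (-0.11) and Gsk3b (0.086) held 0.

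Few UMIs came from the list of other cadherins and relatives of the catenins, which left out the desmosome and brush border genes given above. Of 14 listed genes only Pkp4 (327 UMIs), Ctnnal1 (161) and Pcdh1 (101) had at least 100 UMIs, and Arvcf, a relative of Ctnnd1, had 65. Ctnnal1 was higher in the crypt, at 1.36 (0.79 to 1.97), and Pkp4 was at 0.15. The transcriptional repressors of Cdh1 were barely counted, with 12 UMIs for Snai1, 7 for Zeb1, 2 for Zeb2 and 0 for Snai2 and Twist1 over all 2597 cells. All 7 Zeb1 UMIs and both Zeb2 UMIs were in immune-like cells.

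The genes whose levels followed each member most closely were sought over 14 points, 7 epithelial-like classes in each genotype, among 3619 other genes with at least 300 UMIs. The points share libraries and differ in depth, so the values of Pearson's r on log2 levels are descriptions only. Cct8 (0.95), Sf3a1 (0.93) and Cpne3 (0.93) were nearest to Cdh1, and Cds1 (0.96), Hnf4g (0.96) and Casp1 (0.94) to Cdh17. Vkorc1, Atp2b1 and Pbld2 (0.95 to 0.90) were nearest to Ctnna1, and Ndufa6, Rab3gap2 and Ifngr2 (0.89 to 0.85) to Ctnnd1. Nearest to Ctnnb1 were Trpm7, Chmp5 and Nras (0.81 to 0.80), to Jup Stk17b, Pxn and Lonp2 (0.87 to 0.84), and to Epcam Usp4, Zfp445 and Commd6 (0.83 to 0.76).

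Among the members themselves the highest value was 0.66, between Ctnna1 and Jup, followed by 0.58 between Cdh17 and Jup and 0.56 between Cdh17 and Ctnna1. Cdh1 had negative values with all 4 catenin members, from -0.097 with Ctnnb1 to -0.32 with Ctnnd1, and 0.25 with Cdh17.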

How the data were processed

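Cells were captured on the Biorad ddSEQ with a 3′ UMI kit, and the authors built the gene matrices in BaseSpace Sequence Hub. The deposited values are raw UMI counts, 1 matrix per genotype; the submitters' processing notes name mm10 and GRCm38, and the aligner, annotation and cell calling are not given in the sources used here. Cell names were serial numbers, so shared barcodes could not be counted.

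Counts were normalised to 10000 per cell, cell cycle scores from 43 S and 52 G2M genes were removed by regression, and cells were clustered at a resolution of 0.8 on 20 components from the 2000 most variable genes less 8 adhesion genes (Seurat 5.3.0, R 4.3.3). A class needed 3 or more markers raised 1.5-fold in at least 10% of cells; the scoring was set after clusters were seen, and a goblet or Paneth name became secretory. Scrublet (scanpy 1.11.5, rate 5%) called 2 WT and 4 ROBO doublets, which were kept. UMIs were summed per class. Levels have exact Poisson, shares exact Clopper-Pearson and ratios conditional exact intervals (scipy 1.17.1). Only the ratio intervals were checked, on simulated Poisson counts, which the method assumes. That check does not cover UMIs that clump within cells. Genes needed 100 UMIs over both groups, and the limit for a count of 0 is 3 counts. Genes named are the members, the 4 most counted of each list (1 is not reported here), the 3 nearest to each member, Rspo3, Ptprk and, chosen after values were seen, Twist1 and Ulk4. Members and lists were chosen with earlier results of these data known. Sequences came from RefSeq (GRCm38.p6).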

Additional observations from a re-analysis of the deposited data

How the results depend on the processing

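No paired analysis was possible because the cell names carry no sample number, and leaving out each replicate was not run for the same reason. Alternatives chosen after seeing the data were those that leave out a cluster or fibroblast marker cells, all of the bottom enterocyte ratio, and those of the dividing cluster. Cdh1, Cdh17, Ctnna1, Ctnnd1 and Jup kept the sign of their crypt over villus ratio in all 15 alternatives. Ctnnb1 did so in 7 of 15 and Epcam in 14 of 15. Values are log2 ratios. Where a value moved, the cause was not tested, unless stated.

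Median-of-ratios scaling, which subtracts the median gene by construction, gave crypt over villus ratios of 0.17 for Cdh1, -0.80 for Cdh17, -0.27 for Ctnnb1, -0.55 for Ctnna1, -0.51 for Ctnnd1, -0.68 for Jup and -0.081 for Epcam, and bottom over later ratios of 0.91 for Cdh1 and 0.30 for Cdh17. Leaving ribosomal protein genes and Rn45s out of the total gave 0.57 for Cdh1, -0.41 for Cdh17, 0.13 for Ctnnb1, -0.16 for Ctnna1 and 0.31 for Epcam. A resolution of 0.4 gave 0.044 for Cdh1, -0.85 for Cdh17, -0.58 for Ctnna1 and 0.045 for the bottom over later ratio of Cdh17; a resolution of 1.2 gave -0.67 for Cdh17 and 0.085 for Epcam. With the members among the variable genes Cdh1 was at 0.25 and Cdh17 at -0.67, and the bottom over later ratio of Cdh17 at 0.33. With cells of at least 500 genes these 3 values were 0.23, -0.66 and 0.25, and Epcam was at 0.050. Without doublets Epcam was at 0.10. Marker UMIs in place of clusters (356 crypt and 2183 villus cells) gave -0.70 for Cdh17, 0.11 for Ctnnb1, -0.52 for Ctnnd1 and 0.075 for Epcam. Thinning gave 0.62 for Cdh1 and 0.10 for Ctnnb1, and without the dividing cluster Cdh17 was at -0.73.

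Over all cells, ROBO over WT moved only for Cdh1 when thinned, to -0.13. Reversals by class were Ctnna1 (-0.26) and Epcam (-0.073) in crypt cells at a resolution of 0.4, and, when thinned, Epcam in villus cells (-0.013) and Jup in the dividing cluster (0.20). Genes past 1.5-fold between genotypes numbered 208 with at least 100 UMIs, 737 with at least 30 and 2623 with at least 1 in each group, and between crypt and villus 3623 against 6866 with at least 1. Depth limits Jup and the enteroendocrine-like and immune-like cells most.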
